A study of Homo sapiens with 12 samples.

Results

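The enzymes that modify drugs, toxins and reactive aldehydes were followed in 3 hepatocellular carcinoma (HCC) cell lines under mTOR and SHP2 inhibition. Members were taken by gene name from 7 enzyme families, which were chosen with earlier results of these data known. They number 54 of the 11548 genes in the deposited table: 13 cytochrome P450 genes (CYP), 3 alcohol dehydrogenases (ADH), 12 aldehyde dehydrogenases (ALDH), 7 aldo-keto reductases (AKR), 3 UDP-glucuronosyltransferases (UGT), 12 glutathione S-transferases (GST and microsomal MGST) and 4 sulfotransferases (SULT). In all, 57 names matched, and CYP51A1, ALDH18A1 and GSTP1 were left out by the name rule.

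Liver cells clear foreign and endogenous chemicals in steps. Cytochromes P450 and dehydrogenases or reductases first introduce or change a reactive group, and transferases then attach glucuronic acid, sulfate or glutathione so that the product can be exported. Aldehyde dehydrogenases and aldo-keto reductases remove aldehydes by oxidation and by reduction, respectively. The aryl hydrocarbon receptor AHR with its partner ARNT is known to drive CYP1A1 and CYP1B1, and the oxidative stress factor NRF2 is known to drive many AKR, GST and ALDH3A1 genes.

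Hep3B, Huh7 and MHCC97H cells, all labelled wild type, were left untreated or received the mTOR kinase inhibitor AZD8055, the allosteric SHP2 inhibitor compound #57, or both, with 1 RNA library for each condition (12 libraries of polyA-selected, stranded RNA). AZD8055 was used at 100 nM for 24 h in MHCC97H and for 48 h in Hep3B and Huh7, so a difference between MHCC97H and the other lines cannot be told apart from a difference in exposure. The combination contained 5 µM compound #57, and the dose of compound #57 alone was not given in the sources used here. With no second culture of any condition, the 3 cell lines served as the replicates of a treatment.

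The libraries held 10667343 to 15968317 reads, and levels are given as log2 of (reads per 10000000 plus 1). Of 13 hepatocyte markers, all were in the table and together took 2.79 to 6.66% of the reads in Hep3B and 1.49 to 2.50% in Huh7, but 0.0239 to 0.0463% in MHCC97H. Albumin (ALB) stood at 7.16 to 9.52 in MHCC97H against at least 14.54 in the other lines, APOA1 at 1.93 to 3.18, and TTR was at 0 in 2 of the 4 MHCC97H libraries, whereas the hepatocyte transcription factor HNF4A was present there at 9.22 to 10.69. The MHCC97H libraries thus lack most defining hepatocyte transcripts. In bulk RNA, fewer cells of a kind and less RNA per cell cannot be told apart.

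The sequence just upstream of the genes was searched for 4 short motifs. RefSeq promoter sequences (GRCh38.p14) were found for 45 of the 54 members, and the 250 bases before each start were read on both strands. The xenobiotic response element core GCGTG, to which AHR and ARNT bind, was present in 10 of the 45 members (22.2%), in 46.7% of the 8714 promoters matched to genes of the table and in 31.9% of all 27305 promoters. The antioxidant response element core TGACNNNGC, bound by NRF2, was present in 5 members (11.1%, against 12.1% of the table's promoters and 11.03% of all promoters). The E box CACGTG was present in 3 members (6.67%, against 9.21% and 6.49%), and the FOXO site GTAAACA in 1 (2.22%, against 1.93% and 2.98%). The E box shares no full core with the others, although the ends of an E box and of GCGTG can overlap.

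The last 120 bases before the start are shown for a selection of members, at least 1 for each motif, and other members with a motif in this stretch are not shown. Capitals mark the motif letters, on the gene's strand or as their reverse complement. Of the 11 members called higher with the combination, 10 had a promoter and 2 of these held GCGTG, a smaller share than among the table's promoters. They are shown first: CYP1A1 (chr15:74725529-74725648, minus strand) and GSTZ1 (chr14:77320916-77321035, plus strand).
CYP1A1: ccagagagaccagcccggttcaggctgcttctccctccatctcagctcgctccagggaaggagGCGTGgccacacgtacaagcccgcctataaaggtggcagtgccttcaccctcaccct
GSTZ1: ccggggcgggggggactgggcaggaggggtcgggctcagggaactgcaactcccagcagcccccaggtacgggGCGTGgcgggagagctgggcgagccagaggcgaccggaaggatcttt

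Next are ADH1C with an E box (chr4:99352747-99352866, minus strand), CYP4V2 (chr4:186191447-186191566, plus strand) and GSTA4 (chr6:52995285-52995404, minus strand) with TGACNNNGC, and CYP4F3 with the FOXO letters in reverse complement (chr19:15641192-15641311, plus strand).
ADH1C: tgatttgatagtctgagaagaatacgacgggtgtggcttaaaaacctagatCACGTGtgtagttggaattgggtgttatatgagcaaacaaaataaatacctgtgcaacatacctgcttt
CYP4V2: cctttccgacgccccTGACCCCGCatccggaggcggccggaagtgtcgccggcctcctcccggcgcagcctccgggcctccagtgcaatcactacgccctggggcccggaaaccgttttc
GSTA4: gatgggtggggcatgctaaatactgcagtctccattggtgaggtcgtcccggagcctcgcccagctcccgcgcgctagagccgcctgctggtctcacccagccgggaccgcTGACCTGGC
CYP4F3: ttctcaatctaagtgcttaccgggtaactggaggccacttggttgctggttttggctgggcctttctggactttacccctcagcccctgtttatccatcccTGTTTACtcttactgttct

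The last pair is shown because AKR1C1 (chr10:4963295-4963414, plus strand) and AKR1C2 (chr10:5003858-5003977, minus strand) are near-identical neighbours. In the 250 bases before the start they share an unbroken run of 245 bases, and none of the 4 motifs was found there, so no letters are capitalised.
AKR1C1: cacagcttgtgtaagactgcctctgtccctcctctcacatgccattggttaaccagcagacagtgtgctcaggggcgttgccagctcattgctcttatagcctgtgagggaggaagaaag
AKR1C2: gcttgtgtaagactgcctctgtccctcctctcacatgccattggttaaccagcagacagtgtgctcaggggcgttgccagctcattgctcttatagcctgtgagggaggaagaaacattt
A match describes these letters in this window only, and the AKR1B10, ALDH3A1, CYP1B1, ALDH2, ALDH16A1, CYP4F12, MGST2, SULT1A1 and UGT2B4 promoters were not analysed here.

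The members took a small and line-dependent share of the reads, most of it in a few genes. In untreated cells they held 0.245% of the library in Hep3B, 0.450% in Huh7 and 1.29% in MHCC97H. Compared with untreated cells of the same line, the share was lower with AZD8055 (0.211%, 0.369% and 1.08%) and higher with compound #57 (0.435%, 0.724% and 1.62%). The combination lay between the single agents, at 0.354%, 0.577% and 1.42%. In MHCC97H with AZD8055, the AKR family went from 0.765 to 0.512% of the library, and AKR1B10 from 39.4 to 26.5% of the member reads. The GST and MGST family and the UGT family were also lower there. In contrast, ALDH (0.365 to 0.393%), CYP (0.0387 to 0.0614%), ADH and SULT were higher. With AZD8055 the share of the 13 hepatocyte markers also went from 4.26 to 2.79% in Hep3B and from 2.05 to 1.49% in Huh7, against 0.0239 and 0.0246% in MHCC97H, and its part in the member share was not tested. ALDH1A1, a cytosolic enzyme that oxidises retinal and other aldehydes, supplied 26.7% of the member reads in untreated Hep3B and 52.6% in untreated Huh7. In untreated MHCC97H the leading gene was AKR1B10, a reductase of retinal and other aldehydes, with 39.4%.

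Which enzymes each cell line uses was compared first, with the 4 libraries of a line as its repeats after the treatment term. Against the mean of Hep3B and Huh7, 20 members were higher in MHCC97H and 15 lower by limma (adjusted p under 0.05 and at least 2-fold), where 14.7% and 17.8% of all genes were called in these directions. The table holds only genes with a mean level of at least 4.65, and 8 members reach it in MHCC97H but not in the average of Hep3B and Huh7 (ADH1C, AKR1B1, AKR1B10, AKR1C3, ALDH3A1, CYP1B1, CYP2S1, CYP3A5) and 6 in that average but not in MHCC97H (GSTM2, GSTO2, SULT1A1, SULT1C4, SULT2A1, UGT2B4). AKR1B1, AKR1B10 and CYP3A5 also reach it in Huh7 alone. Genes of these kinds had to differ to be listed, so the counts carry no weight for the families as such, and the values of these 14 members between MHCC97H and the other lines are given as a description without a test. Hepatocyte markers differ between the same lines, and their part in these differences was not tested.

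The aldo-keto reductases reduce aldehydes, ketones and steroids. AKR1B10 had a level of 15.63, 14.80, 15.33 and 13.93 in MHCC97H (untreated, AZD8055, compound #57 and combination, the order used throughout). Hep3B read 4.23, 2.91, 3.12 and 3.31, and Huh7 read 4.60, 3.75, 5.81 and 4.55. All 4 MHCC97H libraries were above all 8 others, with a log2 difference of 10.89. AKR1C3, which converts steroids and prostaglandins, was 9.13 higher and AKR1B1, the aldose reductase, 7.72 higher. AKR1C2 and AKR1C1, which the filter did not bind, were 7.30 ± 0.37 and 5.39 ± 0.32 (SE) higher (limma adjusted p = 6.66e-08 and 2.23e-07). AKR1C genes are near-identical, and how their reads were divided is uncertain. The 2 other reductases, AKR1A1 and AKR7A2, were lower in MHCC97H, by 0.47 and 1.04, the first under 2-fold. The call of AKR7A2 held in 5 of 8 alternatives. Per kilobase of transcript, AKR1B10 gave 31396 reads per 10000000 in untreated MHCC97H, against 11539 for ALDH1A1 and 7173 for MGST1 in the same library.

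Among aldehyde dehydrogenases, ALDH3A1, which oxidises aromatic and fatty aldehydes, had 4656, 7195, 4556 and 6658 reads in MHCC97H but at most 8 in any Hep3B and 15 in any Huh7 library (difference 9.45). ALDH3B1 (3.37), ALDH2, the mitochondrial acetaldehyde enzyme (1.21), and ALDH1A1 (1.06) were also called higher, and ALDH4A1 (-1.48) and ALDH7A1 (-1.12) lower. ALDH1B1, ALDH3A2, ALDH9A1, ALDH5A1 and ALDH16A1 were higher by 0.43 to 0.92, below the 2-fold limit, and ALDH6A1 was at -0.42 (adjusted p = 0.322). The alcohol dehydrogenases were divided. ADH1C, which oxidises ethanol, was higher by 6.78, whereas ADH6 was lower by 2.94 and ADH5, the ubiquitous formaldehyde enzyme, by 1.06.

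The cytochromes P450 were divided as well. CYP1B1 had 1392, 2401, 2841 and 5588 reads in MHCC97H and 7 to 23 in the other lines (difference 7.62). The differences of CYP2S1 and CYP3A5 were 6.02 and 4.47. CYP4F3 (3.17) and the bile acid enzyme CYP27A1 (1.10) were called higher. CYP4V2 (-2.58), the retinoic acid hydroxylase CYP26B1 (-2.05) and CYP1A1 (-1.81) were called lower. CYP20A1 (-0.61) and CYP2U1 (-0.78) were under 2-fold, CYP39A1 and CYP2R1, a vitamin D hydroxylase, did not pass the test, and CYP4F12 was at 1.23 (adjusted p = 0.0658).

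The conjugating enzymes were divided too, and SULT2A1 and UGT2B4 were close to absent from MHCC97H. SULT2A1, which sulfates bile acids and DHEA, had 0, 1, 1 and 0 reads there against 62 to 1686 in Hep3B and 117 to 1414 in Huh7. UGT2B4, which glucuronidates bile acids, had 0, 0, 0 and 1 reads, against 429 to 943 in Hep3B and 44 to 180 in Huh7. The fitted differences of -7.64 and -7.15 depend on the pseudocount and were -4.76 and -4.13 with 10 in place of 1. SULT1C4 (-4.73), SULT1A1 (-2.56), GSTM2 (-2.89), GSTO1 (-1.55) and, just past 2-fold, MGST2 were lower too. In the other direction, UGT2B7 (3.39), GSTA1 (3.17), MGST1 (2.92), SULT1C2 (1.93) and UGT2A3 (1.02) were higher, the call of UGT2A3 being lost in 3 of 7 alternatives. The call of MGST2 held in 5 of 8. GSTK1, GSTZ1 and GSTM4 were not called, nor were GSTA4, GSTM3, GSTO2 and MGST3, whose differences were under 2-fold. The GSTA, GSTM, SULT1A, UGT2B, CYP3A and CYP4F genes have close copies, so reads could be split between them.

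**Figure D1:**
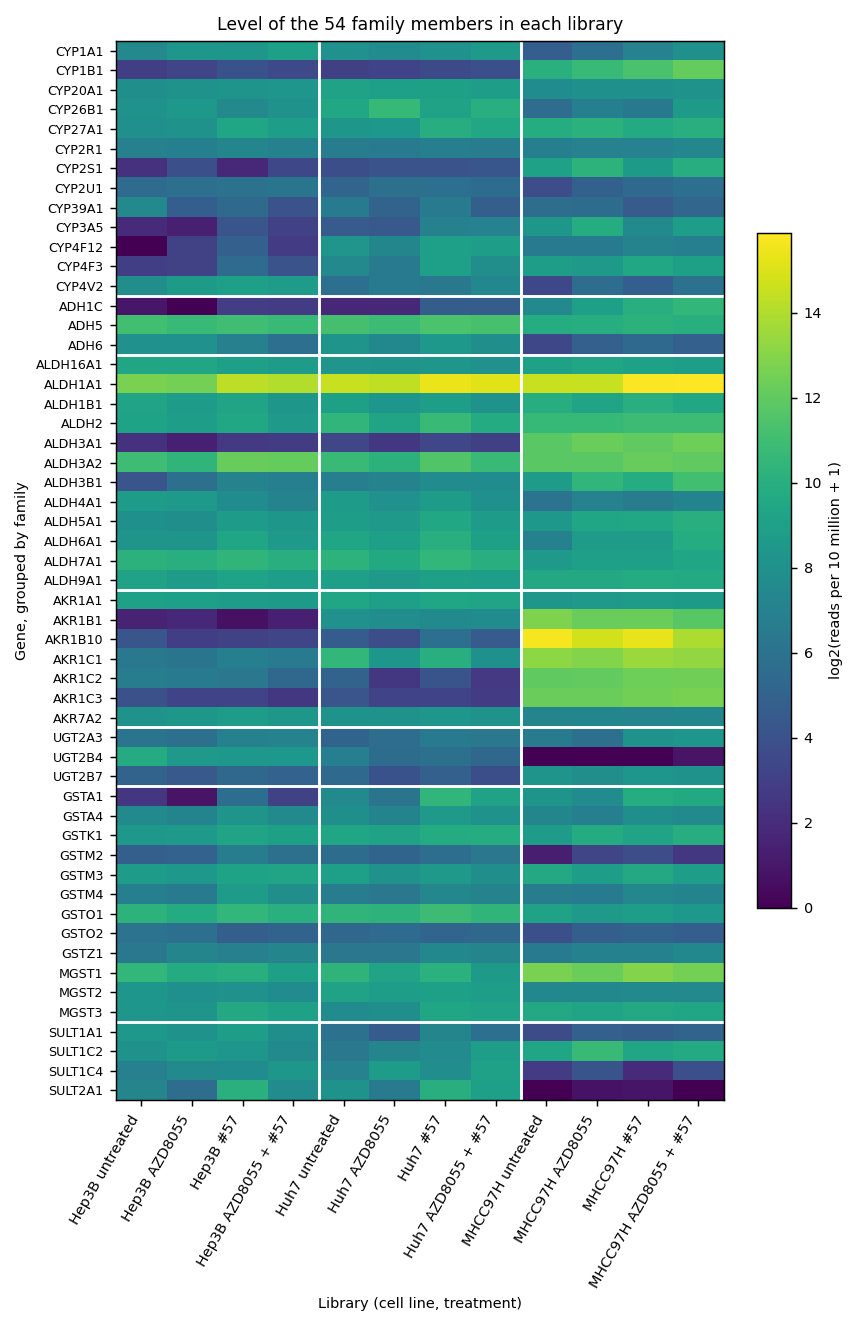
Level of each of the 54 members (rows, grouped by family with white lines between families) in each of the 12 libraries (columns), on the colour scale log2(reads per 10000000 + 1). AKR1B10, AKR1C2, AKR1C3, ALDH3A1 and CYP1B1 are bright only in the MHCC97H columns, where SULT2A1 and UGT2B4 are dark.

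Between Hep3B and Huh7, 4 members were higher in Hep3B and 13 lower, where 12% and 9.4% of all genes were called. AKR1B1 had 2, 3, 1 and 2 reads in Hep3B against 412, 260, 253 and 247 in Huh7 (log2 difference -6.41 ± 0.21, limma adjusted p = 1.58e-08). CYP4F12 (-5.68) and ADH1C (-1.60), counted among the 13 lower, are given as a description. With Huh7 at the Hep3B level, their means would not pass the filter of the table. GSTA1 (-5.27 ± 0.39), CYP4F3 (-3.82 ± 0.28) and CYP3A5 (-3.11 ± 0.70) were also lower in Hep3B. AKR1C2 was higher by 2.62, SULT1A1 by 2.42 and CYP4V2 by 1.99. UGT2B4, the other member counted as higher, was 2.94 higher on the log2 scale, which is given as a description since its mean passes the filter of the table only through its Hep3B values. Hep3B was thus low in several members that MHCC97H and Huh7 carried. GSTP1, which the name rule leaves out, stood at 1.52 to 2.74 in Hep3B, 12.74 to 13.15 in Huh7 and 9.37 to 9.62 in MHCC97H.

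The combination of AZD8055 and compound #57 was compared with untreated cells across the 3 lines. It raised 11 of the 54 members and lowered 3 by limma (Benjamini-Hochberg adjusted p under 0.05), where 20.9% of all genes were called higher and 15.1% lower. The share of members called higher (20.4%) was near that of all genes. The members that rose were 4 cytochromes P450 (CYP1A1, CYP4V2, CYP1B1, CYP2U1), 3 dehydrogenases (ADH1C, ALDH3B1, ALDH1A1) and 4 conjugating enzymes (SULT1C4, UGT2A3, GSTZ1, GSTK1). Those that fell were CYP39A1, MGST1 and ALDH1B1. No aldo-keto reductase was called in this fit, whereas AKR1C2 and AKR1C3 were called lower when MHCC97H was left out. The median log2-fold change of the members was 0.23, against 0.09 over all genes. Without Huh7 none of the 54 was called (0.0953% of all genes), without Hep3B 7 were (13.0%, against 15.6% of all genes), and without MHCC97H 19 were (35.2%, against 32.7% of all genes). Of the 13 hepatocyte markers, 3 rose and 2 fell with the combination, and their summed share of the reads went from 4.26 to 3.11% in Hep3B, from 2.05 to 2.33% in Huh7 and from 0.0239 to 0.0463% in MHCC97H. Their part in the result was not tested.

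The calls of ADH1C, ALDH3B1, ALDH1A1, CYP4V2 and ALDH1B1 were lost without Huh7 and held without either other line, and those of SULT1C4, UGT2A3, GSTK1, CYP1A1, CYP39A1 and MGST1 were lost without Huh7 and without Hep3B. CYP2U1 and GSTZ1 were lost when any line was left out. With only the untreated and combination libraries in the fit, 10 members were called (18.5%, against 16.4% of all genes), and CYP39A1, CYP2U1, CYP1B1, CYP1A1 and MGST1 were not among them.

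ADH1C had 1, 0, 10 and 7 reads in Hep3B, 4, 3, 33 and 29 in Huh7, and 227, 714, 1123 and 1837 in MHCC97H. Both conditions with compound #57 exceeded untreated cells in each line, on few reads in Hep3B and Huh7. The combination gave an estimate of 2.59 ± 0.44 (SE). The mean of ADH1C passes the filter of the table only through the libraries with compound #57. Its rise is thus given as a description, and its call above carries no weight. ALDH3B1, which oxidises lipid aldehydes, had levels of 4.16, 5.86, 7.11 and 6.87 in Hep3B, 6.76, 7.07, 7.69 and 7.73 in Huh7, and 8.74, 10.46, 9.84 and 11.08 in MHCC97H. Every treated library was above the untreated library of its line, by 2.01 ± 0.40 for the combination (limma adjusted p = 0.00619).

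ALDH1A1 supplied more reads than any other member in all libraries of Hep3B and Huh7. Its levels were 12.68, 12.55, 14.27 and 14.04 in Hep3B, 14.53, 14.35, 15.42 and 15.17 in Huh7, and 14.56, 14.55, 15.77 and 15.87 in MHCC97H. The 6 libraries with compound #57 were above the other 2 libraries of their line, and the changes with AZD8055 alone were -0.13, -0.18 and -0.01. With the combination it rose by 1.10 ± 0.19 (limma adjusted p = 0.00384). In contrast, the mitochondrial ALDH1B1 fell by 0.75 ± 0.13 (adjusted p = 0.00379), with levels of 9.25, 8.70, 9.25 and 8.38 in Hep3B, 9.02, 8.31, 8.84 and 8.09 in Huh7, and 9.87, 9.28, 10.01 and 9.43 in MHCC97H. Here the libraries with AZD8055 were the lower ones in each line.

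Of the cytochromes P450, CYP1A1, which oxidises polycyclic aromatic compounds, had levels of 7.48, 8.35, 8.39 and 8.98 in Hep3B, 8.02, 7.68, 8.03 and 8.56 in Huh7, and 4.72, 5.82, 7.01 and 7.98 in MHCC97H. The combination was the highest library of each line, and the estimate was 1.77 ± 0.42 (limma adjusted p = 0.0122). CYP1B1, its relative that also hydroxylates estrogens, rose by 1.20 ± 0.28 (adjusted p = 0.0116), with changes of 0.61 in Hep3B, 0.90 in Huh7 and 2.08 in MHCC97H. In Hep3B and Huh7 it rested on 7 to 23 reads per library, and without MHCC97H it was not called. The fatty acid hydroxylase CYP4V2 rose by 1.66 ± 0.33 (adjusted p = 0.00602) and CYP2U1, another fatty acid hydroxylase, by 1.05 ± 0.31 (adjusted p = 0.0266).

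CYP39A1, an oxysterol hydroxylase of bile acid synthesis, went the other way. It had 187, 32, 68 and 19 reads in Hep3B, 154, 39, 122 and 31 in Huh7, and 66, 68, 26 and 45 in MHCC97H. The decrease with the combination was deep in Hep3B and Huh7 and small in MHCC97H, where the counting interval of the change (-1.06 to 0.09, 95% Clopper-Pearson) included 0. The estimate was -1.90 ± 0.56 (limma adjusted p = 0.0254).

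Conjugating enzymes followed no common direction. SULT1C4, a sulfotransferase of phenols, rose by 1.52 ± 0.38 (limma adjusted p = 0.0140) and had 125, 240, 327 and 411 reads in Hep3B, 211, 497, 296 and 621 in Huh7, and 8, 23, 3 and 17 in MHCC97H. UGT2A3 rose by 1.32 ± 0.30 (adjusted p = 0.0107). GSTZ1, which also acts in tyrosine breakdown, rose by 0.87 ± 0.24, and GSTK1, the mitochondrial and peroxisomal transferase, by 0.74 ± 0.23. MGST1, a membrane-bound glutathione transferase and peroxidase, fell by 1.09 ± 0.25 (adjusted p = 0.0108). Its change was -1.48 in Hep3B and -1.66 in Huh7 but -0.13 in MHCC97H. UGT2B4 was not called in this fit (-0.68, limma adjusted p = 0.213). It changed by -1.345 in Hep3B and -1.55 in Huh7, with 0 and 1 reads in MHCC97H. The alternatives with a pseudocount of 10, with voom and without MHCC97H called it lower.

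**Figure D2:**
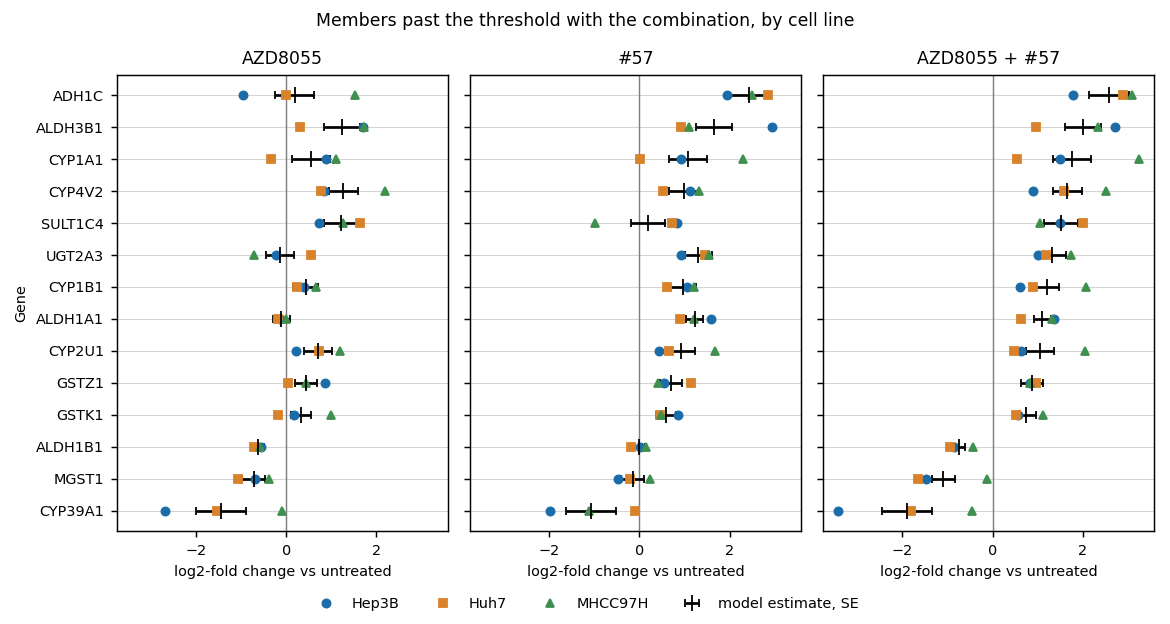
Log2-fold change against untreated cells (horizontal axis) of the 14 members called with the combination (rows), for AZD8055, compound #57 and the combination. Coloured points are the 3 cell lines and black bars the limma estimate with its SE. ALDH1A1 lies near 0 with AZD8055 and above 0 in both other panels, ADH1C is spread from -0.95 to 1.52 with AZD8055, and the ALDH1B1 points are all below 0 with AZD8055 and the combination.

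Compound #57 alone was compared with the same untreated libraries. No member passed the adjusted threshold by limma, where 0.00866% of all genes were called higher and 0% lower, and a voom fit of the recovered reads called 2 members, ALDH1A1 and SULT2A1 (3.70%, against 0.779% of all genes). At an unadjusted p under 0.05 there were 23 of the 54 members, 22 of them higher, or 42.6% of the members against 21.7% of all genes. Without MHCC97H, 12 members were called, 11 of them higher (4.04% of all genes) and 1 lower (2.69%). Within the lines, 16 members were at least 2-fold higher in Hep3B (8.96% of all genes), 12 in Huh7 (4.43%) and 14 in MHCC97H (3.12%). Members at least 2-fold lower numbered 5 in Hep3B (3.75%), 0 in Huh7 (1.52%) and 1 in MHCC97H (0.84%), and 5, 3 and 2 with libraries centred on their medians. In the 3 lines alike, 26 of the 54 members were higher than untreated (48.1%, against 30.6% of all genes) and 2 were lower (3.70%, against 19.7%).

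GSTA1, the main alpha-class transferase of liver, had 5, 1, 80 and 9 reads in Hep3B, 288, 80, 1884 and 669 in Huh7, and 392, 283, 1023 and 984 in MHCC97H. Compound #57 gave the highest library of each line and AZD8055 the lowest, with limma estimates of 2.57 ± 0.45 (adjusted p = 0.0912) and -1.22 ± 0.45 (adjusted p = 0.118). SULT2A1 had 159, 62, 1686 and 251 reads in Hep3B and 462, 117, 1414 and 577 in Huh7. The order of the treatments was thus the same as for GSTA1 in both lines that express it, with changes of 2.85 and 1.85 for compound #57 and of -1.54 and -1.56 for AZD8055. GSTA4, which conjugates the lipid aldehyde 4-hydroxynonenal, moved less, by 0.60 in Hep3B, 0.64 in Huh7 and 0.66 in MHCC97H with compound #57 (0.63 ± 0.14, adjusted p = 0.0912) and by -0.46, -0.71 and -0.38 with AZD8055.

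Further estimates with compound #57 were 1.66 ± 0.40 for ALDH3B1, 1.31 ± 0.30 for UGT2A3 and 1.23 ± 0.19 for ALDH1A1 (limma adjusted p = 0.0884 to 0.0972). ADH1C (2.43) and GSTM2 (1.48) pass the filter of the table only through libraries with compound #57. Their values are given as a description, although both are in the counts above. CYP4F3, which inactivates leukotrienes, was 2.64 in Hep3B, 1.48 in Huh7 and 0.68 in MHCC97H (adjusted p = 0.0912). ALDH6A1 (1.17), GSTM4 (1.05), MGST3 (0.99), CYP27A1 (0.91), ALDH3A2, the fatty aldehyde enzyme (0.83), and ALDH5A1 (0.75) were on the same side of 0. MGST3 and CYP27A1 had such values in Hep3B (1.29 and 1.39) and Huh7 (1.72 and 1.48) but not in MHCC97H (-0.03 and -0.15). CYP3A5, a drug-oxidising enzyme, was 2.26 and 2.43 in Hep3B and Huh7 and -0.83 in MHCC97H. CYP4F12 had 0 reads in untreated Hep3B and 44 with compound #57, at least 10.01-fold higher against a floor of 3 reads per library. AKR1B1 was the member with an unadjusted p under 0.05 on the lower side (-0.59 ± 0.24, adjusted p = 0.199). Of the 13 hepatocyte markers, 7 had an unadjusted p under 0.05 on the higher side and 1 on the lower side with compound #57, and their summed share went from 4.26 to 6.66% in Hep3B, from 2.05 to 2.50% in Huh7 and from 0.0239 to 0.0420% in MHCC97H. The part of this shift in the member values was not tested.

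**Figure D3:**
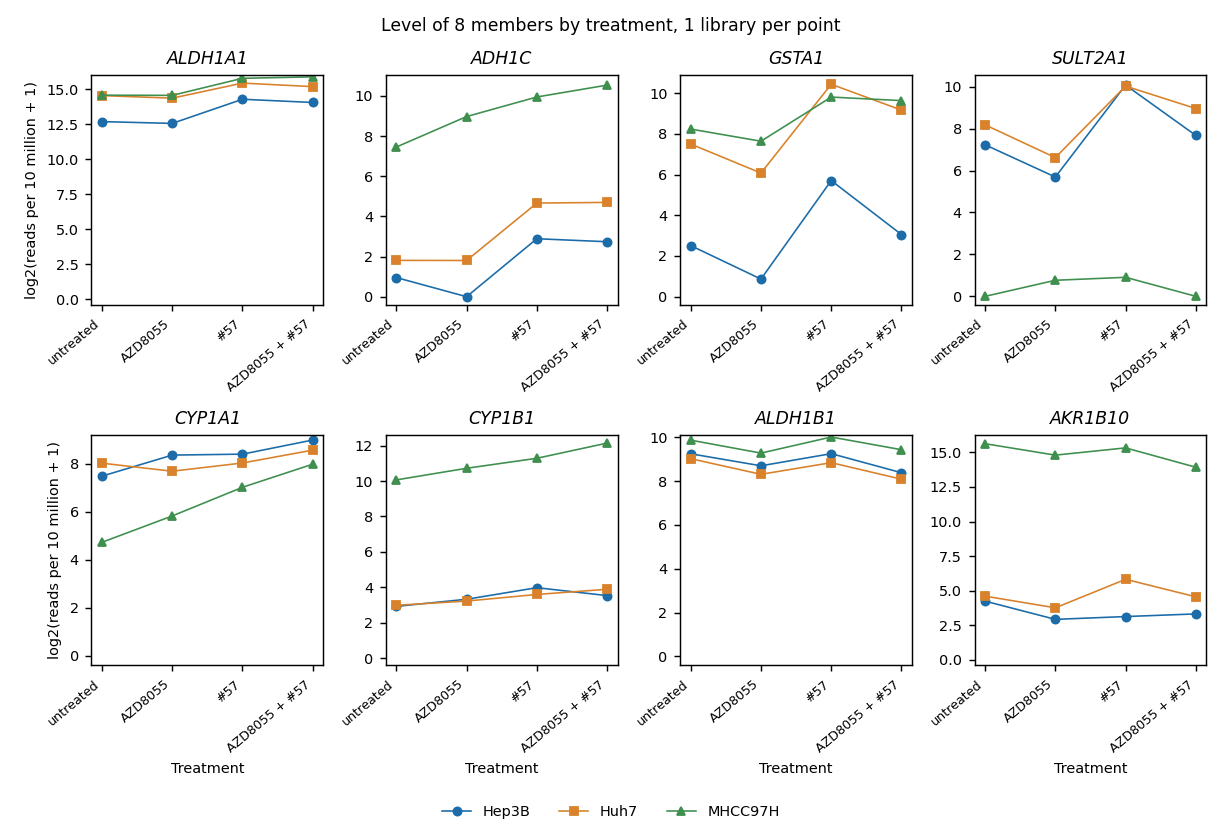
Level (vertical axis, log2 of reads per 10000000 plus 1) of 8 members by treatment (horizontal axis), 1 library per point, with lines joining the libraries of a cell line. GSTA1 and SULT2A1 peak with compound #57 in Hep3B and Huh7, ALDH1B1 dips wherever AZD8055 was given, and CYP1A1 is highest with the combination.

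AZD8055 alone lowered 1 member, ALDH1B1, by 0.62 ± 0.13 (limma adjusted p = 0.0394) and raised none, where 0.753% of all genes were called lower and 2.21% higher. Its changes were -0.55 in Hep3B, -0.71 in Huh7 and -0.59 in MHCC97H, and the call was lost when any cell line was left out. At an unadjusted p under 0.05 there were 15 members (27.8%, against 27.4% of all genes), 5 higher and 10 lower. Members at least 2-fold higher numbered 3 in Hep3B (3.81% of all genes), 2 in Huh7 (5.89%) and 14 in MHCC97H (7.14%). Members at least 2-fold lower numbered 5 (0.823%), 10 (2.52%) and 0 (3.07%). With a pseudocount of 10, Hep3B had 1 member higher (2.68% of all genes) and 3 lower (0.537%). MHCC97H then had 8 higher (4.76%) and 0 lower (2.50%). Most such members were thus lower in Huh7 and higher in MHCC97H, lines that also differed in exposure.

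In Huh7 the members at least 2-fold lower included AKR1C1 with 2282 reads untreated and 396 with AZD8055, and AKR1C2 with 52 and 6, whereas their changes were -0.24 and -0.17 in Hep3B and -0.21 and 0.08 in MHCC97H. ALDH2 was -1.19 in Huh7 and -0.00 in MHCC97H. CYP39A1 was -2.70 in Hep3B, -1.54 in Huh7 and -0.09 in MHCC97H, and UGT2B4 was -1.20 and -1.21 in the lines that express it. UGT2B7 (-0.62, -1.45 and -0.41), GSTM3 (-0.35, -0.78 and -0.77) and AKR1B10 (-1.32, -0.84 and -0.83, in the order Hep3B, Huh7 and MHCC97H) were negative in the 3 lines without passing the adjusted threshold. In MHCC97H, by contrast, reads went from 162 to 601 for ALDH6A1, an enzyme of valine breakdown, from 440 to 1312 for CYP3A5, from 699 to 1754 for CYP2S1 and from 865 to 2332 for SULT1C2.

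On the higher side, CYP4V2 had changes of 0.84 in Hep3B, 0.78 in Huh7 and 2.19 in MHCC97H (1.27 ± 0.33, limma adjusted p = 0.0584). SULT1C4 followed with 0.74, 1.64 and 1.26 (adjusted p = 0.0859) and SULT1C2 with 0.59, 0.85 and 1.30 (adjusted p = 0.267). CYP26B1, which degrades retinoic acid, was 0.33, 1.13 and 1.18, and ALDH3B1 was 1.70, 0.31 and 1.73. None of these 5 passed the adjusted threshold.

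The combination was then set against each single agent, with libraries shared between these comparisons. Against AZD8055, limma called 0 members, and 0% of all genes in either direction, with 12 members at an unadjusted p under 0.05 (22.2%, against 14.5% of all genes) and 0 called by voom. The largest of these estimates were GSTA1 (2.43 ± 0.45), ADH1C (2.40 ± 0.44), UGT2A3 (1.45 ± 0.30), CYP1A1 (1.22 ± 0.42) and ALDH1A1 (1.21 ± 0.19). The ADH1C value is again a description, for the reason given above. Against compound #57, ALDH1B1 was lower by 0.73 ± 0.13 (adjusted p = 0.0250) and 0 members were higher, where 1.57% and 2.62% of all genes were called. The ALDH1B1 call was lost without Huh7 and without Hep3B. GSTA1 was -2.65 in Hep3B, -1.27 in Huh7 and -0.17 in MHCC97H (adjusted p = 0.102), and MGST1 was -0.99, -1.46 and -0.38 (adjusted p = 0.0651). Against untreated cells, members at least 2-fold higher with the combination numbered 12 in Hep3B (11.6% of all genes), 9 in Huh7 (12%) and 18 in MHCC97H (11.4%). Those at least 2-fold lower numbered 8 (6%), 8 (6.46%) and 2 (4.72%). With a pseudocount of 10, Hep3B had 5 members higher (9.89% of all genes) and 6 lower (5.18%).

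Some members had changes with the combination that differed in sign or size between lines. AKR1C1 was -2.52 in Huh7 but 0.11 in Hep3B and MHCC97H. AKR1C2 was -1.38 in Hep3B, -2.45 in Huh7 and 0.49 in MHCC97H, and AKR1C3 was -1.36, -1.35 and 0.43 on at most 27 reads in Hep3B and Huh7 (estimate -0.76, and 0.018 with voom). AKR1B10 had 66207 reads in untreated MHCC97H and 19271 with the combination, a change of -1.71 (95% counting interval -1.73 to -1.68), and AKR1B1 was -1.09 there. SULT1C2 was 2.51 in Huh7 but -0.52 in Hep3B, CYP26B1 was 2.97 in MHCC97H but 0.01 in Hep3B, and ALDH6A1 was 2.85 in MHCC97H but -0.36 in Huh7. ALDH16A1 was negative in the 3 lines (-0.73, -0.23 and -0.19, limma adjusted p = 0.0647). The estimates of ADH5, AKR1A1, AKR7A2, ALDH9A1, CYP20A1 and CYP2R1 with the combination lay between -0.11 and 0.19.

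The receptors, cofactors and carriers that serve these enzymes were read from the same fit. With the combination, 20.9% of all genes were called higher and 15.1% lower. Of 8 xenobiotic receptors and partners, 5 rose with the combination and 1 fell, those that rose being AHR by 0.54, ARNT by 0.68, the AHR repressor AHRR by 0.99, PPARA by 0.79 and HNF4A by 0.84. AHR also rose with AZD8055 alone, by 0.63 (limma adjusted p = 0.0305), and this call was lost without Huh7. Of 16 NRF2 targets outside the families, 1 rose (the exporter ABCC3, 1.42) and 6 fell, among them the quinone reductase NQO1 (-1.51) and the cystine carrier SLC7A11 (-1.45). NQO1 was -2.06 in Hep3B and -2.56 in Huh7 but 0.07 in MHCC97H. Of 8 NRF2 regulators, 3 rose, BACH1, MAFF and MAFK, and CUL3 fell.

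With the combination, 2 of 7 redox partners of the P450 enzymes fell, POR (-0.47) and CYB5B (-0.73), and none rose. In MHCC97H their differences were -0.05 and -0.08. Without Huh7 the combination lowered 0 of all genes by limma, so every fall in these lists was lost there. In that fit 11 of all genes were called higher, against 2410 with the 3 lines. Whether any rise in these lists was among those 11 is not given here. Of 11 cofactor genes, 3 fell, UGDH, which makes UDP-glucuronic acid (-0.58), the glutathione reductase GSR (-0.89) and IDH1 (-0.81). IDH1 went from 12.10 to 10.95 in Hep3B and from 13.36 to 11.79 in Huh7, but from 11.14 up to 11.43 in MHCC97H. Of 21 other drug and aldehyde enzymes, 3 rose, led by the retinal reductase DHRS3 (1.34), and 3 fell, among them the thiopurine methyltransferase TPMT (-0.86) and RDH11 (-0.83). Of 11 drug carriers, 2 rose (SLCO2B1 and ABCC3, the latter also counted above as an NRF2 target) and 2 fell (ABCG2 and ABCC4). With AZD8055 alone, 1 xenobiotic receptor (AHR), 2 NRF2 regulators (MAFF and BACH1) and 1 other enzyme (DHRS3) were called higher, 1 other enzyme (RDH11) was called lower, and the NRF2 target, redox partner, cofactor and carrier lists had 0 called by limma. Without Huh7, AZD8055 called 0 of all genes, so its calls in these lists were lost there. Without Hep3B it called 1 gene higher and 0 lower over all genes. With compound #57 alone 0 genes of these lists were called. Over all genes the background shares are those given above for each treatment.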

How the data were processed

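RNA of 3 HCC cell lines under 4 treatments was sequenced (12 libraries). The authors prepared polyA-selected stranded libraries and deposited 1 table of log2 values per gene and library, with hg38 named in the submitters' processing notes. The aligner, the counting and the filter are not given in the sources used here. Each deposited log2 value equalled log2(reads per 10000000 + 1) plus 0.001, and 100% of the values gave whole reads within 0.05 reads. Library totals recovered this way were 10667343 to 15968317 reads, which sets the counting intervals (95% Clopper-Pearson, counting error only). The sources used here name no molecular identifiers, so reads may not be independent molecules.

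The 0.001 was removed and limma 3.58.1 (R 4.3.3; lmFit, eBayes with trend) was fitted to the log2 values of all 11548 genes, using all 12 libraries and terms for the treatment and the line. Benjamini-Hochberg adjustment ran over all genes, and an adjusted p under 0.05 was called. Cell-line comparisons also required a 2-fold difference. The pairing by cell line comes from the labels, and the deviations of the 18 same-line pairs of libraries from their treatment means correlated at 0.872 to 0.960. Nothing says that libraries of a line came from separate cultures, so p-values measure the spread between these libraries. The fit was tested on simulated data with the same number of genes changed each time. Of the changed genes, 12 were called at a log2 effect of 0.5, 184 at 1 and 199 at 2. Unchanged genes called numbered 0, 8 and 7. The simulated effect was the same in each line, so changes that differ between lines were not tested this way.

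Members and gene lists were chosen with earlier results of these data known. Named were members called in a treatment comparison, those with the largest change shared by the 3 lines, the 6 largest of each cell-line comparison, members at least 2-fold changed in 2 lines, and a list of well-known members. Gene lengths came from GENCODE release 44. Alternatives were another pseudocount, a filter on low means, centring, voom on the recovered reads, no cell line term, only the compared libraries, and each line or treatment left out. Some results for genes of the partner lists are not reported here.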

Additional observations from a re-analysis of the deposited data

Results flagged for a closer look

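A few members were at least 2-fold higher than untreated in 1 cell line and at least 2-fold lower in another under the same treatment. With 1 library per condition, these differences between lines were not tested. SULT1A1, a phenol sulfotransferase, had a log2-fold change of -1.33 in Huh7 and 1.22 in MHCC97H with AZD8055. ADH6, an alcohol dehydrogenase, was -1.10 in Hep3B and 1.94 in MHCC97H with compound #57, and -2.28 and 1.42 with the combination. It had 13 reads in untreated MHCC97H. AKR1B10 was -1.12 in Hep3B and 1.22 in Huh7 with compound #57, on 12 to 75 reads in the compared libraries. GSTO2 was -1.22 in Hep3B and 1.14 in MHCC97H with compound #57. ALDH4A1, an enzyme of proline breakdown, was -1.57 in Hep3B and 1.11 in MHCC97H with the combination.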

How the results depend on the processing

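Signs were compared across the alternatives for 48 log2-fold changes of members named by their call or size. Other changes quoted above, such as those of the well-known members, were not part of this check. Of the 48, 1 changed sign under an alternative: AKR1C3 with the combination, which did not pass the threshold, went from -0.76 to 0.018 with voom. The 75% filter kept 17 of the 48. A voom fit of the recovered reads was chosen after seeing the data. For AZD8055, the 1 member called became 2 with libraries centred on their medians (4.10% of all genes called, against 2.96%) and with voom (3.76%), and 0 with no replicate block (cell line left out of the model) (0%) or with only the libraries compared (0.0173%). For compound #57, 0 became 2 with voom. For the combination against untreated, 14 became 6 in the 75% of genes with the highest mean, which hold 31 members (19.4%, against 38.3% of all genes), and 0 with no replicate block (0% of all genes). For the combination against compound #57, 1 became 3 with voom (5.56%, against 5.48% of all genes) and 0 with no replicate block (0%). With the 75% filter, 18 of the 31 members tested were called for MHCC97H (26.0% of all genes), against 35 of 54, and 8 of 31 for Hep3B against Huh7 (16.1%), against 17. Leaving out each cell line in turn (without replicate 1, 2 or 3) gave 0 to 1 members for AZD8055, 0 to 12 for compound #57, 0 to 19 for the combination, 0 to 0 against AZD8055 and 0 to 4 against compound #57. Without Huh7, the combination gave 11 genes higher and 0 lower over all genes, and without Hep3B 1030 and 767. Without MHCC97H, compound #57 gave 467 genes higher and 311 lower, against 1 and 0, and voom gave 71 and 19. Leaving out each treatment gave 31 to 36 members for MHCC97H and 14 to 18 for Hep3B against Huh7.

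Members at least 2-fold changed within a line, of the 31 that the 75% filter leaves, numbered 2, 5 and 5 for AZD8055 (Hep3B, Huh7 and MHCC97H), 8, 4 and 4 for compound #57 and 7, 7 and 10 for the combination, and the share of all genes at least 2-fold higher was smaller there too (for example 2.15% for AZD8055 in Hep3B). With 10 in place of 1, 1 was higher and 3 lower in Hep3B for AZD8055 (2.68% and 0.537% of all genes), 8 and 0 in MHCC97H (4.76% and 2.50%), and 5 and 6 in Hep3B for the combination (9.89% and 5.18%), that is 4, 8 and 11 in all. Centring moved the calls over all genes from 2410 higher and 1744 lower to 1993 and 2229 for the combination, and from 255 and 87 to 256 and 217 for AZD8055. Members with few reads, such as ADH1C and CYP1B1 in Hep3B and Huh7, are limited by counting. The cause of these shifts was not tested.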
